A study of Homo sapiens with 9 samples.

Results

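The expression of 10 regulators of the Notch pathway and of the secretory lineage of the gut epithelium was followed in RNA-seq libraries of HT-29 cells, a human colorectal adenocarcinoma cell line. They were taken by gene symbol from the deposited count table and are 10 of its 62710 gene IDs. The set held 3 secretory lineage transcription factors (ATOH1, SPDEF, GFI1), 2 HES transcription factors (HES1, HES4), 3 Notch ligands (DLL1, DLL4, JAG1) and 2 Notch receptors (NOTCH1, NOTCH2). All 9 libraries came from wild-type HT-29 cells. In 3 of them the cells were non-stimulated, in 3 they had received 500 ng/mL flagellin, and in 3 they had received 500 ng/mL ADP-heptose, each for 2.5 h according to the methods of the study. Flagellin, the protein subunit of bacterial flagella, is recognised by Toll-like receptor 5, and ADP-heptose, a sugar metabolite of Gram-negative bacteria, is sensed in the cytosol by the kinase ALPK1. The comparisons asked how each stimulus changed the transcriptome and how the responses to the stimuli differed.

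In the Notch pathway, a ligand of the Delta-like or Jagged type on 1 cell binds a Notch receptor on its neighbour, proteases release the intracellular part of the receptor, and this fragment joins the DNA-binding protein RBPJ to switch on target genes such as HES1. In the intestinal crypt, HES1 represses ATOH1, the transcription factor that commits a progenitor to the goblet, Paneth, enteroendocrine or tuft fate. Cells with low Notch activity express ATOH1 together with Delta-like ligands and enter the secretory lineage, whereas cells with high Notch activity become absorptive, and SPDEF and GFI1 act downstream of ATOH1 in goblet and Paneth cells.

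The main changes were found after ADP-heptose. ATOH1 fell to 0.31 of its non-stimulated level, HES1 fell by a smaller amount, and HES4 and JAG1 rose. The receptors NOTCH1 and NOTCH2 and the secretory factor SPDEF did not pass the test in any comparison. None of the 10 genes passed it after flagellin in the fit of all 9 libraries, and JAG1 passed it in 2 of 17 alternative analyses.

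The promoters of the 4 genes that changed after ADP-heptose are shown with the letters that the Notch effector RBPJ and HES repressors are known to bind. Each sequence is the plus or minus strand of GRCh38.p14 as given by RefSeq, read 5′ to 3′ towards the gene, and starts 250 bases upstream of the RefSeq start. Bases that GENCODE 29 places inside the gene were left out, apart from a motif across that edge. Capitals mark TGGGAA, the RBPJ core, and CACGNG, the class C site of HES proteins, on either strand.
ATOH1, chr4:93828503-93828752, plus strand: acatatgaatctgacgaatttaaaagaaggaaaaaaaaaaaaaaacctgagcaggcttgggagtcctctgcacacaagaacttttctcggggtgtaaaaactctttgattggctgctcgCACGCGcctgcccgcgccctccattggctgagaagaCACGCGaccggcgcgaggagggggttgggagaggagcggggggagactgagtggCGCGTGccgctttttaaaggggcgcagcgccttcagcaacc
HES1, chr3:194135898-194136144, plus strand: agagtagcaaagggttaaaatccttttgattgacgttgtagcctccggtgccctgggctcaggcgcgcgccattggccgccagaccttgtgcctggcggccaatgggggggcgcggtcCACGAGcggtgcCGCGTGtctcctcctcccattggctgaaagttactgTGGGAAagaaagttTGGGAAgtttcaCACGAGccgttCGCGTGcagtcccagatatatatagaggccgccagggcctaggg
HES4, chr1:1000168-1000347, minus strand: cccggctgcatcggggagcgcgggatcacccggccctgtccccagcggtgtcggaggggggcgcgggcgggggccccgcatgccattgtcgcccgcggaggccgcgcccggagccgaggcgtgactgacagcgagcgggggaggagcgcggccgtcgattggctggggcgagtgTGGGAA
JAG1, chr20:10674000-10674249, minus strand: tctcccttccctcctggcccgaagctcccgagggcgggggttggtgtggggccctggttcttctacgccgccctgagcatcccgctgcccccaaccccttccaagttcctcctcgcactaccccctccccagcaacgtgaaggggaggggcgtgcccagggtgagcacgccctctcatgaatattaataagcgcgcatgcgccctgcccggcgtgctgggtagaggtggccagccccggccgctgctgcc

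In the 250 bases upstream of the start, the HES1 promoter held 2 matches to the RBPJ core, beginning at positions -84 and -70 from the start, and the HES4 promoter held 1, at -76. The RBPJ core also matched in genes that did not pass, at -24 in SPDEF and at -115 in 1 of 3 GFI1 entries. The ATOH1 promoter held 3 class C sites, at -131, -95 and -41, an N-box (CACNAG, another HES-binding sequence) at -178, and no RBPJ core. Class C sites were likewise present in GFI1, at -114 and -196 in different entries, and in DLL4, at -234. The HES1 promoter held 4 class C sites, of which those at -132 and -58 also read as N-boxes, and a separate N-box at -165; 1 GFI1 entry had an N-box at -49. The JAG1 window held none of the motifs searched. Over all 35116 RefSeq promoter entries of the same length, 20.8% held TGGGAA, 26.7% held CACGNG and 32% held CACNAG, so that each motif is common. The consensus of the inflammatory factor NF-κB was present in 9.96% of the entries and matched 2 times in the DLL4 window and 1 time in the NOTCH2 window. The E-box CAGCTG, present in 14% of the entries, matched in none of the members. A RefSeq promoter was found for 9 of the 10 genes, with 11 entries in all, and not for DLL1. These matches describe the sequence only.

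The libraries held 30770448 to 58272772 counts, and 17412 genes passed the filter on low counts, among them all 10 members. The stimuli were visible in all 5 NF-κB response genes chosen as a check: CXCL8, which encodes a neutrophil chemokine, rose 205-fold after ADP-heptose and 5.61-fold after flagellin, with adjusted p = 9.5e-12 and 1.2e-06 in edgeR's quasi-likelihood test. Of 8 colon epithelial markers, 7 passed the filter. The intestinal transcription factors were weak: CDX2 stayed between 12.1 and 54.9 normalized counts and passed as lower after ADP-heptose only when the third ADP-heptose library was left out (-1.37, adjusted p = 0.0187), and CDX1 was at 0 in the 6 non-stimulated and flagellin libraries and had 4 to 12 raw counts after ADP-heptose. Of 9 leukocyte, fibroblast and endothelial markers, COL1A1 alone passed the filter, at 500.02 to 766.0 normalized counts, while COL1A2 and CD3E were at 0 in all libraries. The summed level of these 9 genes was 512.7 to 595.7 normalized counts in non-stimulated, 516.0 to 652.5 in flagellin-stimulated and 689.9 to 780.2 in ADP-heptose-stimulated libraries, and COL1A1 was higher after ADP-heptose (log2 fold change 0.41, adjusted p = 0.0311, and 0.37 without the third ADP-heptose library). Its part in the results below was not tested.

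The third ADP-heptose library stood apart from the other two. The SD of its log2 differences from them over 11821 well-expressed genes was 0.37 and 0.38, against 0.13 between the other two and at most 0.19 within the other groups. The difference followed transcript length: relative to its group, the median gene was higher by 0.38 log2 units for exonic lengths under 2 kb and stood at -0.25 for lengths over 8 kb. Values without this library are therefore given for the members beside their results. The sample labels do not say that replicates came from separate cultures, and the study describes the 3 libraries of a group as independent experiments. A permutation test of 3 against 3 libraries cannot give an exact two-sided p below 0.1.

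Levels between genes were compared per kb of exonic length, as normalized counts (counts scaled to a common library size) per kb. In non-stimulated cells SPDEF stood highest, at 1385.5 ± 23.8 per kb (SD, n = 3), followed by HES1 at 817.9 ± 34.2. JAG1 (499.6 ± 23.3) and HES4 (479.3 ± 40.2) came next and their libraries overlapped. NOTCH1 lay at 374.8 ± 28.7 per kb. NOTCH2 (202.4 ± 27.6) and ATOH1 (152.5 ± 28.3) followed, again with overlapping libraries. DLL4 reached 93.4 ± 4.99 per kb. GFI1 (16.2 ± 1.54) and DLL1 (10.6 ± 4.48) were the lowest, with overlapping libraries and 43 to 54 and 19 to 44 raw counts per library. After ADP-heptose the mean of HES4 (849.0 ± 158.0 per kb) and of JAG1 (795.5 ± 157.1) stood above that of HES1 (614.8 ± 23.7), and ATOH1, at 47.7 ± 7.60, stood below DLL4, at 74.7 ± 8.17.

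**Figure D1:**
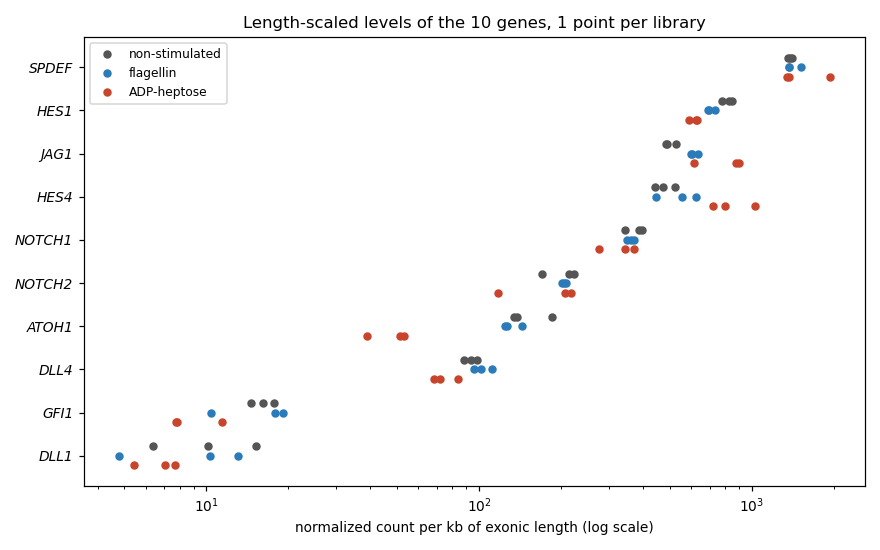
Normalized count per kb of exonic length (log axis) of each gene, with 1 point per library, coloured by group. The levels run from SPDEF, at 1385.5 per kb in non-stimulated cells, to DLL1, at 10.6, and the ADP-heptose points of ATOH1 lie apart from its other points.

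ATOH1, the bHLH factor at the head of the secretory lineage, is a gene with a single exon of 2.21 kb on chromosome 4 (GRCh38, 93828753 to 93830964, plus strand). Its normalized counts were 305.3, 409.5 and 297.3 in the non-stimulated libraries and 280.2, 274.6 and 317.7 after flagellin. After ADP-heptose they were 113.3, 117.1 and 86.3. All 3 ADP-heptose libraries lay far below the other 6, whereas the flagellin and non-stimulated libraries overlapped. After ADP-heptose, ATOH1 decreased by 68.6% (log2 fold change -1.67, SE 0.16, 95% interval -2.03 to -1.31, adjusted p = 2.1e-05, edgeR). The direct comparison with flagellin gave -1.46 (SE 0.17, adjusted p = 1.0e-04). For flagellin against non-stimulated cells the log2 fold change was -0.21 with an adjusted p of 1, and its 95% interval of -0.56 to 0.13 did not reach the ADP-heptose value. Without the third ADP-heptose library the values were -1.54 and -1.32. In bulk RNA, fewer cells expressing ATOH1 and less ATOH1 RNA per cell cannot be told apart.

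GFI1 encodes a zinc-finger repressor downstream of ATOH1 (chromosome 1, 92474762 to 92486876, minus strand). Its levels were low, with normalized counts of 53.6, 48.2 and 58.4 in non-stimulated, 58.9, 62.9 and 34.5 in flagellin and 37.5, 25.7 and 25.8 in ADP-heptose libraries. The ADP-heptose libraries lay below all non-stimulated libraries and overlapped with the third flagellin library. The log2 difference from non-stimulated cells was -0.85 (95% interval -1.46 to -0.23), which missed the threshold (adjusted p = 0.0756) and passed it in 3 of 17 alternative analyses; without the third ADP-heptose library it was -0.76 (adjusted p = 0.114). Between flagellin and non-stimulated cells it was -0.03 (-0.63 to 0.57).

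SPDEF, an ETS factor of goblet and Paneth cell maturation (chromosome 6, 34537802 to 34556333, minus strand), had 2607.5, 2698.4 and 2649.9 normalized counts in non-stimulated libraries. The values were 2906.8, 2628.2 and 2628.6 after flagellin and 2581.2, 2610.6 and 3692.8 after ADP-heptose. The groups overlapped, and the third ADP-heptose library alone was high. The log2 difference between ADP-heptose and non-stimulated cells was 0.16 (95% interval -0.10 to 0.42, adjusted p = 0.439) and -0.03 without that library.

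HES1, the bHLH repressor that is the classical Notch target, lies on chromosome 3 (194136145 to 194138732, plus strand). Its normalized counts were 1708.0, 1743.6 and 1607.7 in non-stimulated cells, 1426.0, 1437.1 and 1513.4 after flagellin and 1303.9, 1212.1 and 1287.3 after ADP-heptose. The 3 groups did not overlap, with non-stimulated cells highest and ADP-heptose lowest. HES1 fell by 24.8% after ADP-heptose (log2 fold change -0.41, SE 0.07, 95% interval -0.57 to -0.26, adjusted p = 0.00216). After flagellin the value was -0.21 (-0.37 to -0.05), with an unadjusted p of 0.0132 and an adjusted p of 0.914, and over the alternatives the adjusted p ranged from 0.0967 to 1. The direct comparison gave -0.20 (-0.36 to -0.05, adjusted p = 0.122). It passed the threshold in 3 of 17 alternatives, among them the fit without the third ADP-heptose library. Over the 17 the adjusted p ranged from 0.0169 to 0.353. HES1 in the third ADP-heptose library was 0.03 log2 units from the other two, and without it the change from non-stimulated cells was -0.42 (adjusted p = 1.2e-05).

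HES4, a HES family member that humans have and mice lack, lies on chromosome 1 (998962 to 1000172, minus strand). It moved the other way. Its normalized counts were 530.2, 583.4 and 494.1 in non-stimulated, 700.1, 500.02 and 620.1 in flagellin and 890.7, 809.2 and 1147.6 in ADP-heptose libraries. All ADP-heptose libraries lay above the other 6, and the flagellin and non-stimulated libraries overlapped. HES4 rose 1.77-fold after ADP-heptose (log2 fold change 0.82, SE 0.15, 95% interval 0.50 to 1.15, adjusted p = 0.00279), and 0.67 on the log2 scale without the third library. It was also higher than after flagellin (0.64, adjusted p = 0.0168), a call that 14 of 17 alternatives kept and that was lost without flagellin replicate 2 (0.52), without flagellin replicate 3 (0.66) and in the fit of 6 libraries. Flagellin against non-stimulated cells gave 0.18 (-0.15 to 0.51, adjusted p = 1). HES1 and HES4 changed in opposite directions in the same libraries.

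**Figure D2:**
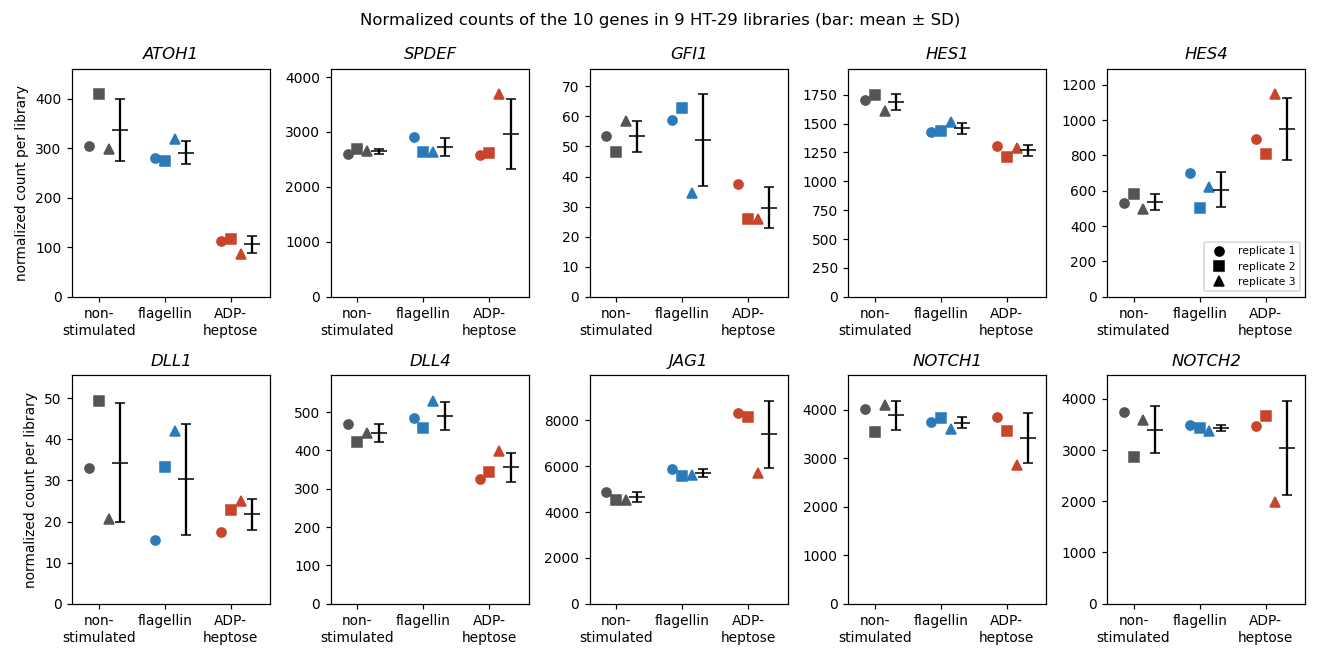
Normalized counts of each of the 10 genes in the 9 libraries, with symbols for replicates 1 to 3 and the mean ± SD beside each group; every vertical axis starts at 0. The ADP-heptose points of ATOH1 (86.3 to 117.1) and HES4 (809.2 to 1147.6) lie clear of both other groups, and the third ADP-heptose point is low for JAG1 and NOTCH2 and high for SPDEF.

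JAG1 encodes a Notch ligand of the Jagged type (chromosome 20, 10637684 to 10673999, minus strand). Its normalized counts were 4895.2, 4510.4 and 4531.0 in non-stimulated cells, 5895.2, 5579.1 and 5615.8 after flagellin and 8330.1, 8146.0 and 5713.1 after ADP-heptose. Every stimulated library exceeded every non-stimulated library, and the third ADP-heptose library lay within the flagellin range. JAG1 rose 1.59-fold after ADP-heptose (log2 fold change 0.67, SE 0.12, 95% interval 0.41 to 0.93, adjusted p = 0.00251), and by 0.83 on the log2 scale without the third library. The flagellin value was 0.29 (0.03 to 0.55) with an unadjusted p of 0.0294 and an adjusted p of 1 in the fit of all 9 libraries. It passed the threshold when the 6 libraries compared were fitted alone (adjusted p = 2.7e-04) and when the third ADP-heptose library was left out (adjusted p = 8.9e-05). ADP-heptose against flagellin gave 0.38 (adjusted p = 0.08) with that library and 0.54 (adjusted p = 1.3e-10) without it, and did not pass in the fit of 6 libraries (adjusted p = 0.185). An antisense transcript shares 79 exonic bases with JAG1 and had at most 2 counts in any library.

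DLL4, a Delta-like ligand also known from angiogenesis (chromosome 15, 40929333 to 40939073, plus strand), had 468.3, 420.7 and 445.4 normalized counts in non-stimulated libraries. It had 483.9, 457.7 and 529.5 after flagellin and 324.9, 342.8 and 399.4 after ADP-heptose. The ADP-heptose libraries lay below the other 6. The difference from flagellin passed the threshold (log2 fold change -0.46, SE 0.11, 95% interval -0.70 to -0.23, adjusted p = 0.0195), and did so in 12 of 17 alternatives. It missed it in the fit of 6 libraries and when ADP-heptose replicate 1 (-0.41) or 2 (-0.44) or flagellin replicate 1 (-0.47) or 3 (-0.41) was left out. The difference from non-stimulated cells was -0.32 (-0.56 to -0.09) and missed it (adjusted p = 0.0804), but was -0.41 and passed without the third ADP-heptose library (adjusted p = 0.00632). In these libraries the DLL4 values lay below, and the JAG1 values above, those of non-stimulated cells.

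DLL1, the Delta-like ligand of secretory progenitors (chromosome 6, 170282206 to 170306565, minus strand), was measured with 15 to 44 raw counts per library. Its normalized counts ran from 20.5 to 49.4 in non-stimulated, 15.5 to 42.1 in flagellin and 17.5 to 24.9 in ADP-heptose libraries, and the groups overlapped. The log2 difference after ADP-heptose was -0.65 with a wide interval, -1.56 to 0.25 (adjusted p = 0.352). Without the third ADP-heptose library it was -0.75 (adjusted p = 0.29). FAM120B overlaps DLL1 on the opposite strand without shared exonic bases and had 265 to 516 counts. Whether its reads entered the DLL1 counts was not tested.

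NOTCH1 (chromosome 9, 136494433 to 136545786, minus strand) and NOTCH2 (chromosome 1, 119911553 to 120069626, minus strand) encode the Notch receptors of the crypt. NOTCH1 had 4008.1, 3550.0 and 4108.3 normalized counts in non-stimulated, 3757.8, 3829.7 and 3612.4 in flagellin and 3850.9, 3569.1 and 2856.5 in ADP-heptose libraries. NOTCH2 had 3736.9, 2871.2 and 3595.9, then 3496.2, 3433.8 and 3380.2, then 3472.7, 3665.5 and 1981.2 in the same order. The groups overlapped for both genes, and the third ADP-heptose library was the lowest of the 9 for both. The log2 difference between ADP-heptose and non-stimulated cells was -0.18 (-0.41 to 0.04, adjusted p = 0.294) for NOTCH1 and -0.16 (-0.56 to 0.24, adjusted p = 0.617) for NOTCH2, and without that library the values were -0.06 and 0.07. NOTCH2 has near-identical partial copies, NOTCH2NLA, NOTCH2NLB, NOTCH2NLC and NOTCH2NLR, to which the counting could have assigned some of its reads. They had 0 to 78 counts, against 2227 to 5132 for NOTCH2.

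**Figure D3:**
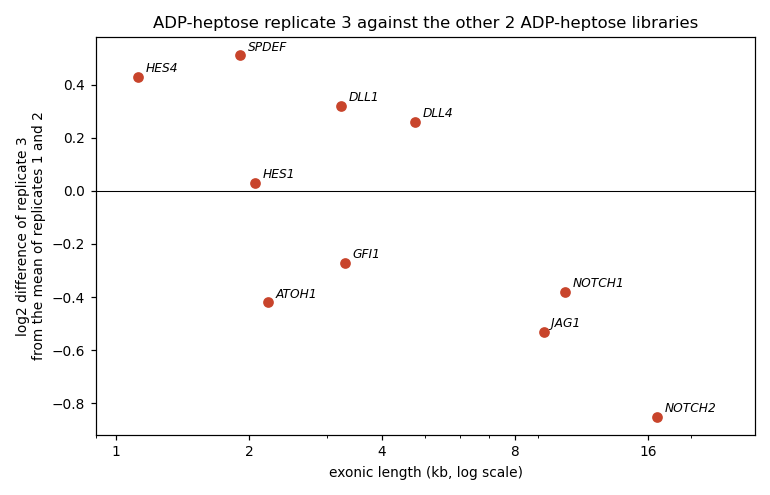
Log2 difference of the third ADP-heptose library from the mean of the other 2 (vertical axis) against exonic length in kb (log axis) for the 10 genes. NOTCH2 (16.81 kb, -0.85), JAG1 (9.30 kb, -0.53) and NOTCH1 (10.38 kb, -0.38) were low in this library, and SPDEF (1.91 kb, 0.51) and HES4 (1.12 kb, 0.43) were high. ATOH1 (2.21 kb, -0.42) and GFI1 (3.3 kb, -0.27) were low although they are short. DLL1 (3.23 kb, 0.32) and DLL4 (4.76 kb, 0.26) were high, and HES1 (2.06 kb) stood at 0.03.

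Counted over the members, ADP-heptose against non-stimulated cells gave 2 genes higher (HES4, JAG1) and 2 lower (ATOH1, HES1) at an adjusted p under 0.05, beside 7.48% and 4.42% of all genes tested. ATOH1 alone was lower by at least 2-fold, as were 0.471% of all genes. The libraries of the groups did not overlap for 6 of the 10 genes, beside 30.1% of all genes. The 10 had a median log2 fold change of -0.25, beside 0.01 over all genes. For flagellin, edgeR called 0 of 10 in the fit of all 9 libraries and DESeq2 also 0. In edgeR 2 genes (HES1, JAG1) had an unadjusted p under 0.05, and JAG1 passed in 2 of 17 alternatives. Among all genes flagellin raised 0.368% and lowered 0.0115%, and the libraries did not overlap for 2 of the 10 genes, beside 12.9% of all. Between ADP-heptose and flagellin, 1 gene was higher (HES4) and 2 lower (ATOH1, DLL4), beside 5.4% and 2.76% of all genes, and the libraries did not overlap for 4 of the 10, beside 27% of all. The comparisons share libraries and are not independent of each other. The members and the gene lists below were chosen with earlier results of these data known, so their shares beside all genes are a description.

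**Figure D4:**
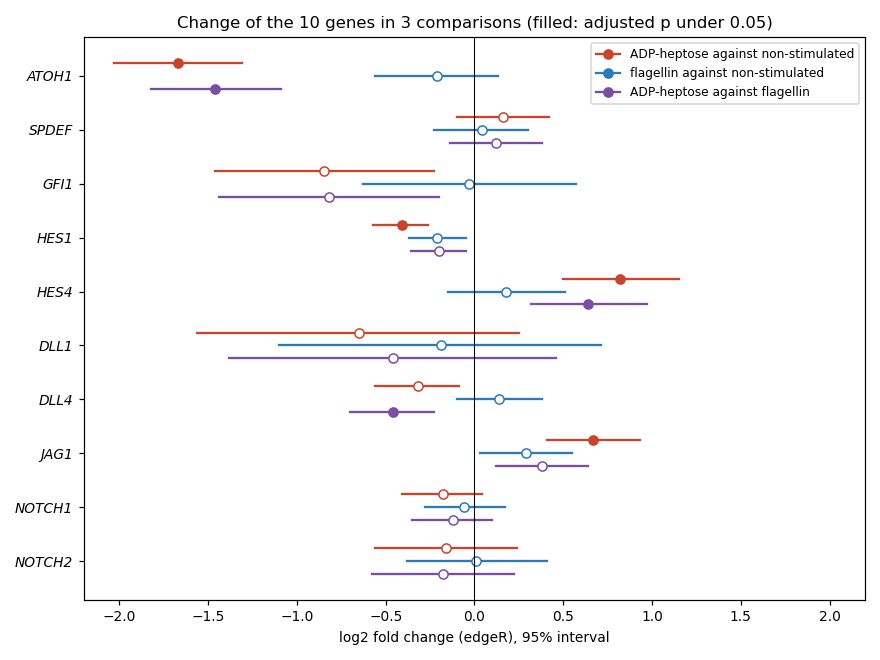
Log2 fold change of the 10 genes with its 95% interval in the 3 comparisons; filled points have an adjusted p under 0.05 in edgeR. ATOH1 (-1.67 and -1.46) is far from 0 in both ADP-heptose comparisons, while no flagellin point is filled.

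The other genes of the Notch pathway were taken from a list of 55, of which 49 passed the filter. After ADP-heptose 4 were higher and 2 lower than in non-stimulated cells, beside the 7.48% and 4.42% of all genes, and 43 did not pass; the median was 0.10. Together 6 of 49 is a share near the background. NRARP, a Notch target that feeds back on the receptor complex, had 1487.3, 1652.7 and 1749.3 normalized counts in non-stimulated, 1992.6, 1917.7 and 2040.4 in flagellin and 3950.9, 3669.1 and 3418.8 in ADP-heptose libraries. Its 3 groups did not overlap. NRARP rose 2.26-fold after ADP-heptose (log2 fold change 1.18, adjusted p = 1.1e-06, and 1.23 without the third library), and the flagellin value was 0.28 with an unadjusted p of 0.00515 and an adjusted p of 0.539. NRARP therefore rose in the libraries in which HES1 fell. The other targets tested, HES6, HES7, HEY1, HEY2 and HEYL, did not pass, and all of them except HES6 had group means under 26 normalized counts. Of these, HES7 gave 2.09 after flagellin (adjusted p = 0.441) and 1.35 after ADP-heptose (adjusted p = 0.175). HEY2 gave 1.72 after flagellin (unadjusted p = 0.0201 in edgeR) and 1.06 after ADP-heptose (adjusted p = 0.338).

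Among the corepressors of the nuclear complex, TLE3 rose (0.77, adjusted p = 8.2e-05) and its paralogue TLE1 fell (-0.23, adjusted p = 0.0426). Of the inhibitors and turnover factors, NUMBL, a Numb-like adaptor, rose (0.47, adjusted p = 0.0107) and DTX4, a Deltex ubiquitin ligase, fell (-0.61, adjusted p = 1.7e-04). With all 9 libraries, none of the 9 glycosyltransferases and endocytosis factors passed against non-stimulated cells in edgeR or in DESeq2. In edgeR 1 of them had an unadjusted p under 0.05. DESeq2 called 1 of them, NEURL1B, lower than after flagellin (edgeR -1.32, adjusted p = 0.0965). RBPJ itself gave -0.15 (-0.31 to 0.01, adjusted p = 0.234). The other ligands and receptors, JAG2 (-0.16), NOTCH3 (0.09), NOTCH4 (0.10) and DLK2 (0.38), did not pass, and DLL3 was too low to be tested. Without the third ADP-heptose library 10 of the other Notch genes were higher and 4 lower. Among the lower were JAG2 (-0.21, adjusted p = 0.0253) and the glycosyltransferase POFUT1 (-0.15, adjusted p = 0.0448). The share over all genes also grew, to 11.2% higher and 7.07% lower. The genes of the list named as changed passed there too. After flagellin 0 of the 49 passed in edgeR and 0 in DESeq2, with 4 at an unadjusted p under 0.05 in edgeR, and between ADP-heptose and flagellin 4 were higher and 2 lower, beside 5.4% and 2.76% of all genes.

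**Figure D5:**
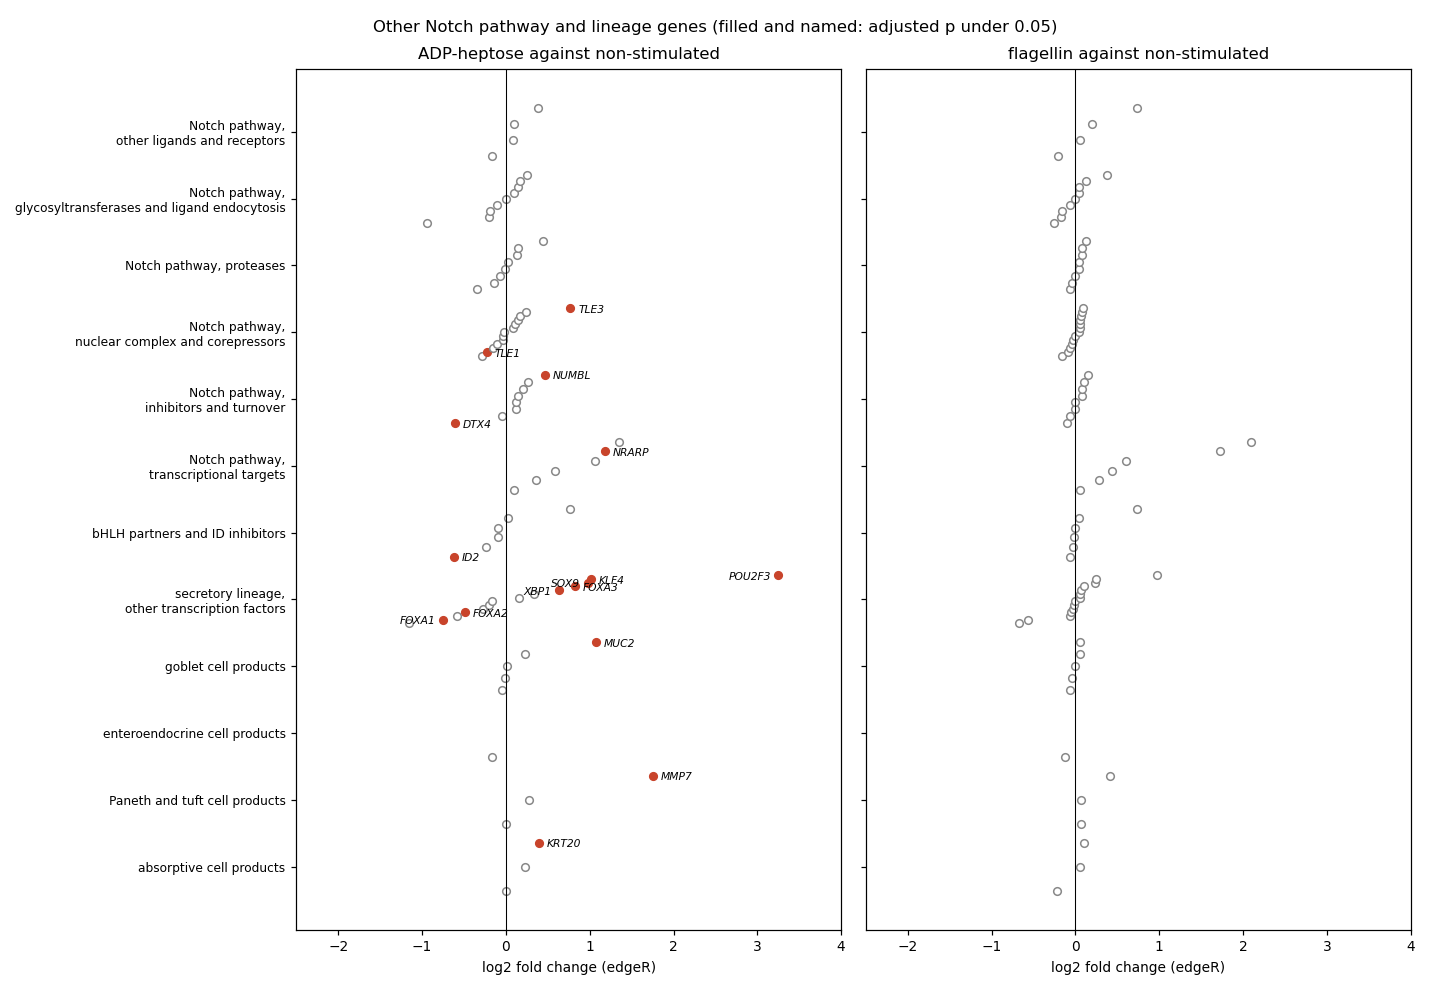
Log2 fold change of other Notch pathway and lineage genes, 1 point per gene (1 tested gene is not shown), grouped by role, after ADP-heptose (left) and flagellin (right) against non-stimulated cells; filled, named points have an adjusted p under 0.05. NRARP (1.18), POU2F3 (3.25) and MMP7 (1.75) lie to the right after ADP-heptose, and no flagellin point is filled.

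The bHLH proteins with which ATOH1 pairs did not pass: TCF3 gave 0.03 (-0.13 to 0.18) and TCF12 -0.09 (-0.35 to 0.17). ID2, which sequesters such partners, fell after ADP-heptose from 4363.0, 4730.3 and 4634.8 to 2901.1, 2825.6 and 3183.9 normalized counts (log2 fold change -0.62, adjusted p = 7.6e-05), with 4141.4, 4444.1 and 4452.0 after flagellin. The ADP-heptose libraries of ID2 lay below the other 6, and without the third the change was -0.67. ID1 gave -0.09 (-0.38 to 0.19), and -0.28 with adjusted p = 0.00217 without that library, and ID3 had under 12 normalized counts in each group mean.

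Of 48 further genes of the secretory lineage, 23 passed the filter, and 7 were higher and 2 lower after ADP-heptose, beside 7.48% and 4.42% of all genes. POU2F3, the master factor of tuft cells, had 8.25, 8.98 and 20.5 normalized counts in non-stimulated, 24.8, 29.7 and 19.1 in flagellin and 117.5, 132.1 and 111.2 in ADP-heptose libraries. It rose 9.49-fold after ADP-heptose (log2 fold change 3.25, SE 0.31, adjusted p = 1.8e-05), and the flagellin libraries overlapped with the non-stimulated ones. MMP7, the matrix metalloproteinase of Paneth cells in mice, rose 3.35-fold (1.75, adjusted p = 6.8e-08). MUC2, the main gel-forming mucin of goblet cells, rose 2.12-fold (1.08, adjusted p = 0.00195), from 170.2, 121.2 and 208.7 to 398.3, 372.8 and 287.3 normalized counts. SOX9, a factor of crypt progenitors and Paneth cells, rose 1.98-fold (0.98, adjusted p = 1.3e-05), and KLF4, a zinc-finger factor of goblet cells, rose 2.02-fold (1.02, adjusted p = 1.1e-06). FOXA3 (0.82, adjusted p = 1.7e-04) and XBP1 (0.63, adjusted p = 3.9e-05) also rose. The forkhead factors FOXA1 (-0.75, adjusted p = 1.3e-04) and FOXA2 (-0.49, adjusted p = 3.0e-04) fell, so that the 3 FOXA genes did not move together. MUC2, KLF4 and SOX9 rose in the same libraries in which ATOH1 fell. Without the third ADP-heptose library 7 were higher and 5 lower of the 24 then tested, and the 9 genes named kept their calls, with log2 fold changes of 3.30 for POU2F3, 1.63 for MMP7, 1.21 for MUC2, 1.10 for SOX9 and 1.07 for KLF4.

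Other goblet cell products did not pass after ADP-heptose, among them TFF3 (0.23, -0.17 to 0.63), AGR2 (-0.01, and -0.19 with adjusted p = 0.0141 without the third ADP-heptose library) and REG4 (0.01), and the same was true of the Paneth cell product LYZ (95% interval -0.15 to 0.14). Some products listed for these lineages were not detected: DEFA5 and DEFA6 (Paneth cells), DCLK1 (tuft cells), CLCA1 (goblet cells) and SST (enteroendocrine cells). They were at 0 in all 9 libraries, which allows up to 3 counts in each. In contrast, TRPM5, a cation channel of tuft cells, had 66 to 151 raw counts per library and did not pass after ADP-heptose (0.28, -0.27 to 0.84). The 10 enteroendocrine products summed to 34.2 to 47.4 normalized counts in all groups. Only TPH1 of these passed the filter, with 5 to 26 raw counts per library, and it was not called after ADP-heptose (-0.16, -1.31 to 0.99). NEUROG3, the enteroendocrine master factor, did not pass (-1.16, adjusted p = 0.135). KRT20, a keratin of mature absorptive cells, rose by 0.40 (adjusted p = 9.4e-04). It was the only 1 of 10 absorptive products called, of which 3 passed the filter: VIL1 gave -0.00 (-0.13 to 0.12) and CA2 0.23 (-0.11 to 0.56). ALPI, FABP2 and AQP8 were at 0 in all libraries, and FABP1, SI, CA1 and SLC26A3 had at most 6 raw counts. After flagellin 0 of the 23 secretory genes passed in edgeR, with 3 at an unadjusted p under 0.05, and 1 (MMP7) passed in DESeq2. Between ADP-heptose and flagellin 7 were higher and 2 lower, beside 5.4% and 2.76% of all genes.

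The 5 genes whose pair of log2 fold changes (ADP-heptose and flagellin, each against non-stimulated cells) lay nearest to that of ATOH1 were sought among 12219 genes. OTX1, a homeobox factor, was the nearest, at a distance of 0.23 log2 units. It had 393.0, 428.6 and 404.3 normalized counts in non-stimulated, 392.9, 405.0 and 440.2 in flagellin and 126.6, 142.1 and 128.1 in ADP-heptose libraries. ARID5B, an ARID-domain DNA-binding protein, was at 0.29, followed by KLHDC7A (0.31), SLITRK6 (0.33) and GVQW3 (0.36). Their log2 fold changes after ADP-heptose ran from -1.62 (OTX1) to -1.33 (GVQW3), and after flagellin from -0.19 (SLITRK6) to 0.01 (OTX1). These genes were chosen for their values, which are a description.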

How the data were processed

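RNA-seq of polyadenylated RNA was analysed from 9 HT-29 libraries, 3 per group, grouped by the treatment in the sample labels. The authors aligned the reads with HISAT2 and counted them per gene with featureCounts, and deposited raw counts, which are not normalized. Versions, the annotation, the build and the strand setting are not given in the sources used here. Without a known strand setting, reads of a gene and its antisense partner cannot be told apart. The table held 62972 lines, and 232 gene IDs listed more than once with identical counts were kept once, none of them a member.

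Counts were tested with edgeR 4.0.16 (R 4.3.3; TMM scaling, filterByExpr, robust quasi-likelihood fit of all 9 libraries), with Benjamini-Hochberg adjustment over the 17412 genes tested and a threshold of 0.05. The study used DESeq2 with a 2-fold minimum; DESeq2 1.42.0 and the 2-fold minimum were run as alternatives. For normalized counts, each library was scaled to the geometric mean of the TMM-adjusted library sizes. The SE is the absolute log2 fold change divided by the square root of F. The script was tested on simulated data. Positions and exonic lengths came from GENCODE 29 (GRCh38), matched by gene ID; lengths were known for 96.3% of tested genes. Promoters came from RefSeq (GRCh38.p14).

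Alternatives were DESeq2 size factors, library totals, no filter, a mean count of at least 10, fits of the 6 libraries compared, a replicate block, length offsets (a spline with 4 degrees of freedom per library) and leaving out each library. The members and gene lists were chosen with earlier results of these data known. Named were all 10 members, genes of each list past the threshold (at most 6 per list) and a fixed set of pathway genes. Also named were genes overlapping a member or sharing sequence with it. The 5 genes nearest to ATOH1 were named from those averaging 1 or more log2 CPM. HES7, HEY2, HEYL, DLK2, NEURL1B, POFUT1, NEUROG3 and the marker genes that did not pass were named after their values were seen. Of the Notch genes counted as higher after ADP-heptose, 1 is not reported here by name or value. The limit given for undetected genes covers counting error only. The intervals of the fold changes come from the quasi-likelihood fit and also include the variation estimated between replicate libraries.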

Additional observations from a re-analysis of the deposited data

How the results depend on the processing

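Of the members, ATOH1, HES1, HES4 and JAG1 stayed past the threshold after ADP-heptose against non-stimulated cells under all 17 alternatives that keep the threshold alone, with log2 fold changes of -1.80 to -1.51, -0.56 to -0.39, 0.61 to 0.92 and 0.54 to 0.83. A further 2-fold minimum left 1 of the 4, 1 of the 3 called between ADP-heptose and flagellin, 1 of the 6 other Notch genes and 4 of the 9 other secretory genes. Fitting only the 6 libraries compared gave 1 member for flagellin against non-stimulated cells and 1 for ADP-heptose against flagellin, and length offsets gave 5 for the latter. Leaving out 1 library at a time gave 0 to 1 members for flagellin against non-stimulated cells (1 without ADP-heptose replicate 3), 1 to 5 for ADP-heptose against flagellin (5 without ADP-heptose replicate 3, 1 without flagellin replicate 3) and 4 to 14 other Notch genes after ADP-heptose (14 without ADP-heptose replicate 3). The causes were not tested.

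Scaling to library totals moved the median change over all genes to -0.127 (log2) after ADP-heptose and the split of calls to 917 higher and 1886 lower, against 1302 and 770; length offsets gave 1305 and 1417. Without the filter, flagellin called 114 higher and 10 lower genes, against 64 and 2, and the fit of 6 libraries called 140 and 3.

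Reversals occurred in members that did not pass. SPDEF after ADP-heptose gave -0.02 with length offsets and -0.03 to 0.24 without single libraries, and against flagellin -0.01 with library totals, -0.02 with length offsets and -0.06 to 0.21. Without single libraries NOTCH2 ran from -0.32 to 0.07 after ADP-heptose and -0.33 to 0.07 against flagellin, and NOTCH1 from -0.22 to 0.00 against flagellin. For flagellin against non-stimulated cells these ranges were -0.02 to 0.06 for SPDEF, -0.19 to 0.18 for GFI1, -0.51 to 0.16 for DLL1 and -0.09 to 0.09 for NOTCH2, which gave -0.00 with library totals.

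With the replicate block the members called stayed at 4, 0 and 3 in the 3 comparisons, and 5 other Notch and 9 other secretory genes were called after ADP-heptose. Deviations of same-numbered libraries correlated at 0.22, -0.39 and -0.25 between ADP-heptose and non-stimulated cells. The third ADP-heptose and the second non-stimulated library correlated at 0.44, and both carried a trend with transcript length. Because of this trend, the correlations cannot decide whether the numbers pair the samples. Depth limits GFI1 and DLL1, with 27 to 57 and 15 to 44 counts.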
